A study of Mus musculus with 6 samples.

Results

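Runs of the mouse genome in which E2F1 chromatin immunoprecipitation (ChIP-seq) peaks lie close together were described. Overlapping peaks (1 bp or more) of the 2 E2F1 libraries were merged, and intervals holding a peak of each library were kept. An interval was taken as a member of a dense run when it lay in any window of 200 kb that held 8 or more such intervals. Of 7001 intervals on assembled chromosomes, 399 (5.7%, Wilson 95% interval 5.18 to 6.27) were members, and they formed 36 runs. The cells were NIH/3T3, an established mouse fibroblast line, carrying a stably integrated construct from which doxycycline induces E2F1, or an empty vector (EV) in its place. Both kinds of cell were kept in low serum for 48 hours, which holds them in a resting state, and then received doxycycline for 12 hours, with 2 libraries of each. The labels do not say whether each line is 1 clone or a pool, nor whether replicates were separate cultures. Positions are on the mm10 build (GRCm38), counted from 1.

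E2F1 is a transcription factor that binds DNA as a dimer with a DP protein. In resting cells the retinoblastoma family holds E2F proteins inactive, and their release is known for switching on genes for DNA replication and entry into S phase. E2F sites are GC-rich and lie mostly close to transcription starts, often in CpG islands. Genes are spread unevenly over mouse chromosomes, and in gene-dense stretches neighbouring genes often start from a shared promoter on opposite strands.

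The members were chosen from the peaks themselves, so their number, spacing and fold enrichment are descriptions without a test. Fold enrichment is the authors' deposited ratio of reads at a peak's summit to the local background, and it was used here to rank the peaks of 1 list. Where folds of several libraries stand side by side, their difference was not tested. The lists held 7836 and 8027 peaks for E2F1 and 70 and 358 for EV. The genome-wide background solved from each list, the only measure of depth used here, was 1.85 and 1.86 reads for E2F1 and 2.20 and 1.18 reads for EV.

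Sequences of 5 promoters at members are shown first, because they cover the highest member and promoters with and without an E2F site. They over-represent such sites, which occurred in 6.12% of promoters over members. Each line gives the 250 bases before a RefSeq transcription start (GRCm38.p6), 5′ to 3′ on the strand of the gene, with capitals marking any of the E2F sites TTTGGCGC, TTTCCCGC, TTTCGCGC and TTTGCCGC on either strand. Mdc1 (chr17:35841248-35841497, plus strand) encodes a DNA damage checkpoint mediator and has the member with the highest mean fold. Cdc6 (chr11:98907901-98908150, plus strand) encodes a factor that loads the replicative helicase. Cc2d1a (chr8:84147918-84148167, minus strand) encodes a signalling scaffold and repressor and shares its member with a gene on the other strand. Ezh2 (chr6:47595031-47595280, minus strand) encodes the methyltransferase of Polycomb repressive complex 2. Ddx39b (chr17:35241496-35241745, plus strand) encodes an RNA helicase of splicing and mRNA export.
Mdc1: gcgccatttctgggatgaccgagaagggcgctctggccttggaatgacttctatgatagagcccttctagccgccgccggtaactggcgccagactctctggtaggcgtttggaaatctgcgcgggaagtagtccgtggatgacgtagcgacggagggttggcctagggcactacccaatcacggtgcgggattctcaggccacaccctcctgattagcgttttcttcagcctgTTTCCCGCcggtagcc
Cdc6: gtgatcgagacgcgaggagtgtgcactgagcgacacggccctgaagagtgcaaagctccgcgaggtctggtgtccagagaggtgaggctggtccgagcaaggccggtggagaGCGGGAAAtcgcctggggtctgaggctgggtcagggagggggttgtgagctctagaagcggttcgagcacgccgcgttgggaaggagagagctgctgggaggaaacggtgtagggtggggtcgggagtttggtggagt
Cc2d1a: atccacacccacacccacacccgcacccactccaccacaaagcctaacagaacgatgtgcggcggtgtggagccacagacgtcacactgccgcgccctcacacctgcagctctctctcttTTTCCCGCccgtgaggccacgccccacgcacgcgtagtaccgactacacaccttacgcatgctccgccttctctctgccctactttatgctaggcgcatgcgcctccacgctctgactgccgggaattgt
Ezh2: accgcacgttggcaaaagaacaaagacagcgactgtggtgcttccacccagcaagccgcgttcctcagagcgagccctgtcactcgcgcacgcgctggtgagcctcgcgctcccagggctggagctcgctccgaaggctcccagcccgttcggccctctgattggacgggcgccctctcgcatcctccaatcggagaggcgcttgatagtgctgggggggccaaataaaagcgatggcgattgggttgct
Ddx39b: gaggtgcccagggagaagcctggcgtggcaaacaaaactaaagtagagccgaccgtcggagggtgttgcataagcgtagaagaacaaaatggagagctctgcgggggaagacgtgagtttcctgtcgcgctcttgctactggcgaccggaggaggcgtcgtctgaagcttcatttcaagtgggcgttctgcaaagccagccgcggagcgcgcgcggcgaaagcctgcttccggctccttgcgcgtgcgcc
The marked site began 16 bases before the start in Mdc1, 138 bases before it in Cdc6 and 130 bases before it in Cc2d1a. The 250 bases of Ezh2 and Ddx39b held none of these letters, and Ezh2 had 1 match in the window extended to 50 bases past the start. Summits of the Mdc1 member lay 161 and 154 bp past the start in E2F1 replicates 1 and 2, and those of Ddx39b lay 15 and 35 bp past it. Those of Ezh2 lay 273 and 370 bp before its start, outside the bases shown.

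The runs lay on 11 chromosomes and were unevenly spread. Chromosome 19 had 6 runs with 77 of its 281 intervals (27.4%), and chromosome 17 had 6 runs with 56 of 352 (15.9%). Chromosomes 8, 10 and 6 followed with 11.1%, 10.3% and 9.72% of their intervals. Chromosomes 11, 15, 7, 3, 4 and 5 had between 2.25% and 8.17%, and no run lay on chromosomes 1, 2, 9, 12, 13, 14, 16, 18, X and Y. Chromosome 11 holds the most intervals of any chromosome, 600, of which 49 were members. Chromosome 2 came next with 498 and had no member, so a chromosome rich in intervals did not always hold a run. Together the runs spanned 9.05 Mb, which is 0.340% of the annotated length of the assembled chromosomes, 2660 Mb.

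Runs were gene-dense throughout. Their spans held 586 protein-coding genes, or 64.7 per Mb, against 8.19 per Mb over all assembled chromosomes, a ratio of 7.91. A gene was counted in a run only when its midpoint lay in the span. Genes at a run's ends can therefore be left out of its gene counts, as Ezh2, Ddx39b and Tubb5 were. The sparsest runs were those led by Ezh2 on chromosome 6 and by Bbc3 on chromosome 7, with 30.5 and 30.8 genes per Mb. The densest was the run led by Dctn1 on chromosome 6, with 112.4 genes per Mb, and the median of the 36 runs was 64.6. Even the sparsest run thus held over 3 times the genes per Mb of the whole assembly. The 10 genes of the Ezh2 run include Gm40369, Gm40367, Gm40365, Gm36327, Gm40364 and Gm40363, none with an interval at a boundary. These lie at the array of evenly spaced peaks described further on and make up most of that run's gene count. Summits of neighbouring members were a median of 17449 bp apart (quartiles 8630 and 34066), against 107248 bp over all intervals.

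More genes in runs carried an interval than elsewhere, as a run's definition favours. An interval came within 1000 bp of a boundary, meaning the annotated start or end, of 346 of the 586 genes (59.0%, 55.0 to 63.0), against 31.3% of all 21779 protein-coding genes. The other genes of the runs had none at a boundary, although some held a member inside them, and in 2 runs each gene had one. Seen from the intervals, 318 members (79.7%, 75.5 to 83.4) lay at a protein-coding boundary, close to the 83.6% of all intervals. Members touched the boundaries of 2 or more genes in 116 cases (29.1%, 24.8 to 33.7), against 15.8% of all intervals and 15.04% of those outside runs. Because a boundary can be a gene's end, these cases are not a count of shared promoters. Promoters on both strands were overlapped by 27 members (6.77%) and by 519 intervals outside runs (7.86%). By that measure the share was not higher at members. A further 40 members (10.0%) lay inside a protein-coding gene, 18 (4.51%) at the boundary of another kind of gene only, and 23 (5.76%) between genes, the last against 2.39% outside runs.

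**Figure D1:**
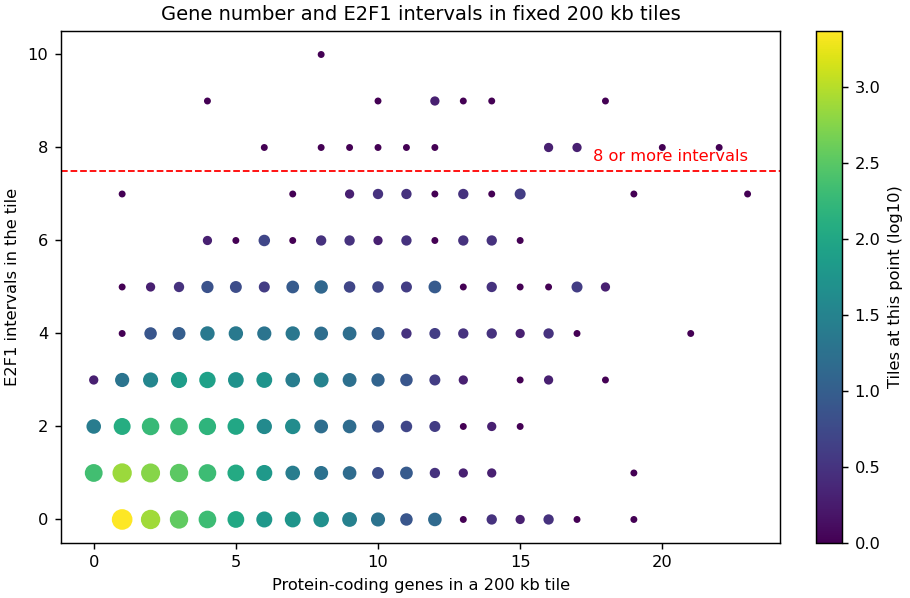
Protein-coding genes (horizontal axis) and E2F1 intervals (vertical axis) in fixed tiles of 200 kb, with dot size and colour for the number of tiles on a log10 scale. Tiles with 8 or more intervals lie above the dashed line, and tiles with 12 to 23 genes range from 0 to 9 intervals.

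The plot of fixed tiles shows how far gene number alone orders the genome. Across 8041 tiles with at least 1 gene or interval, the Spearman correlation between genes and intervals was 0.40, a description over tiles that share chromosomes and neighbours. Of the 120 tiles with 12 to 23 genes, 12 held 8 or more intervals and 25 held none, with a median of 4 (quartiles 1 and 6). Among those 25, 13 consisted mostly of olfactory, vomeronasal or taste receptor genes, families expressed in sensory cells. Tiles with 3 to 11 genes added 8 more with 8 or more intervals, and tiles with fewer than 3 genes added none.

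Members had somewhat lower folds than other intervals in each library. The median was 8.92 (quartiles 6.21 and 13.5) against 9.93 in E2F1 replicate 1, and 9.57 (6.55 and 16.7) against 12.9 in E2F1 replicate 2. On the log2 scale the ratio of medians was -0.15 and -0.43, with a mean of -0.29 ± 0.20 (SD, n = 2). The quartiles of members and others overlapped widely in each library. The read pileup at the summit was a median of 54 for members against 51 for others in replicate 1, and 50 against 51 in replicate 2. The local background was 2.63 times the genome-wide one at members against 2.29 at others in replicate 1, and 2.19 against 1.49 times in replicate 2. Pileups were therefore about level and the background under members was higher; the part of the background in the lower folds was not tested. Members held 36 (9.02%) of their number in the top 10% of intervals by fold in replicate 1 and 18 (4.51%) in replicate 2.

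**Figure D2:**
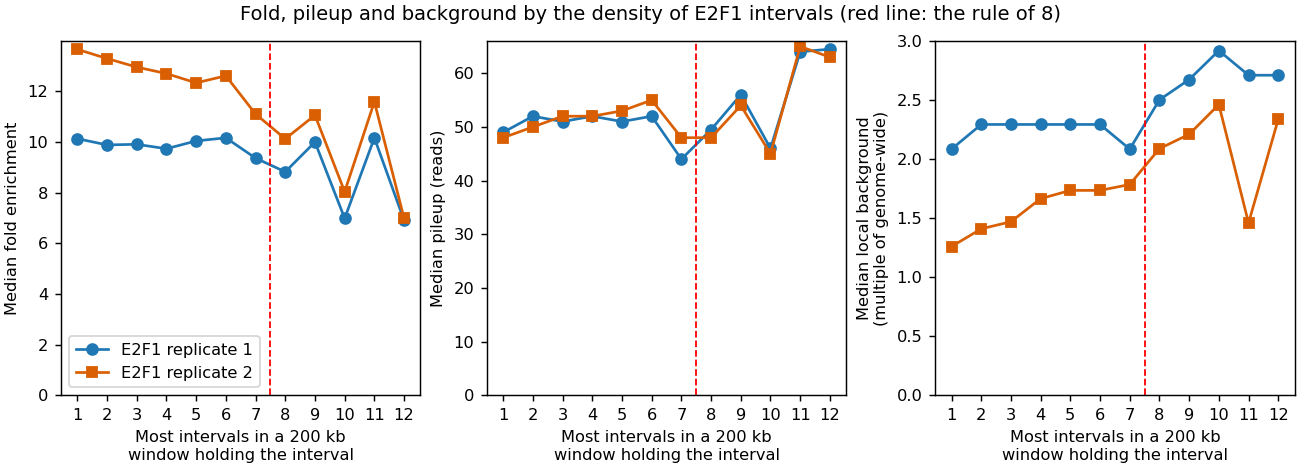
Median fold enrichment, read pileup and local background relative to the genome (vertical axes) by the most intervals found in any 200 kb window holding an interval (horizontal axis), for each E2F1 library. The dashed line marks the rule of 8, and right of it the groups hold 118, 163, 69, 13 and 36 intervals.

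Across the threshold the values moved little. Intervals just inside, whose fullest window held 8, had median folds of 8.82 and 10.1 in E2F1 replicates 1 and 2 (118 intervals), and those just outside, with 7, had 9.36 and 11.1 (292 intervals). The 36 intervals in windows of 12 had the lowest medians in each library, 6.90 and 6.98, at pileups of 64.5 and 63 reads. Windows of 12 occurred in the runs led by Ezh2, Pwwp3a and Nol12, and 7 of these 36 intervals were those of the array on chromosome 6 described further on. Without the 7, chosen after the data were seen, the other 29 had median folds of 8.20 and 8.96 at pileups of 48 and 46 reads, and the lowest medians were those of windows of 10, 6.98 and 8.03. Windows of 10 include the 10 members of the run on chromosome 4 with the other array, described further on. Median folds of that run were 5.55 and 5.93 in E2F1 replicates 1 and 2. The plot by density shows a local background of 2.09 and 1.26 times the genome-wide value at isolated intervals and of 2.71 and 2.34 times in windows of 12. Members agreed between libraries about as well as other intervals did, with a Spearman correlation of 0.74 against 0.70 across intervals. Replicate 2 gave the higher fold at 236 of 399 members (59.1%) and at 70.9% of the others. Members touching 1 gene had median folds of 9.80 and 11.3 (202 intervals), and those touching 2 or more had 8.60 and 8.30 (116 intervals). Members were a median of 1013 bp wide against 1095 bp, and 50 of them (12.5%) were 2000 bp or wider, against 9.86% of the others.

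**Figure D3:**
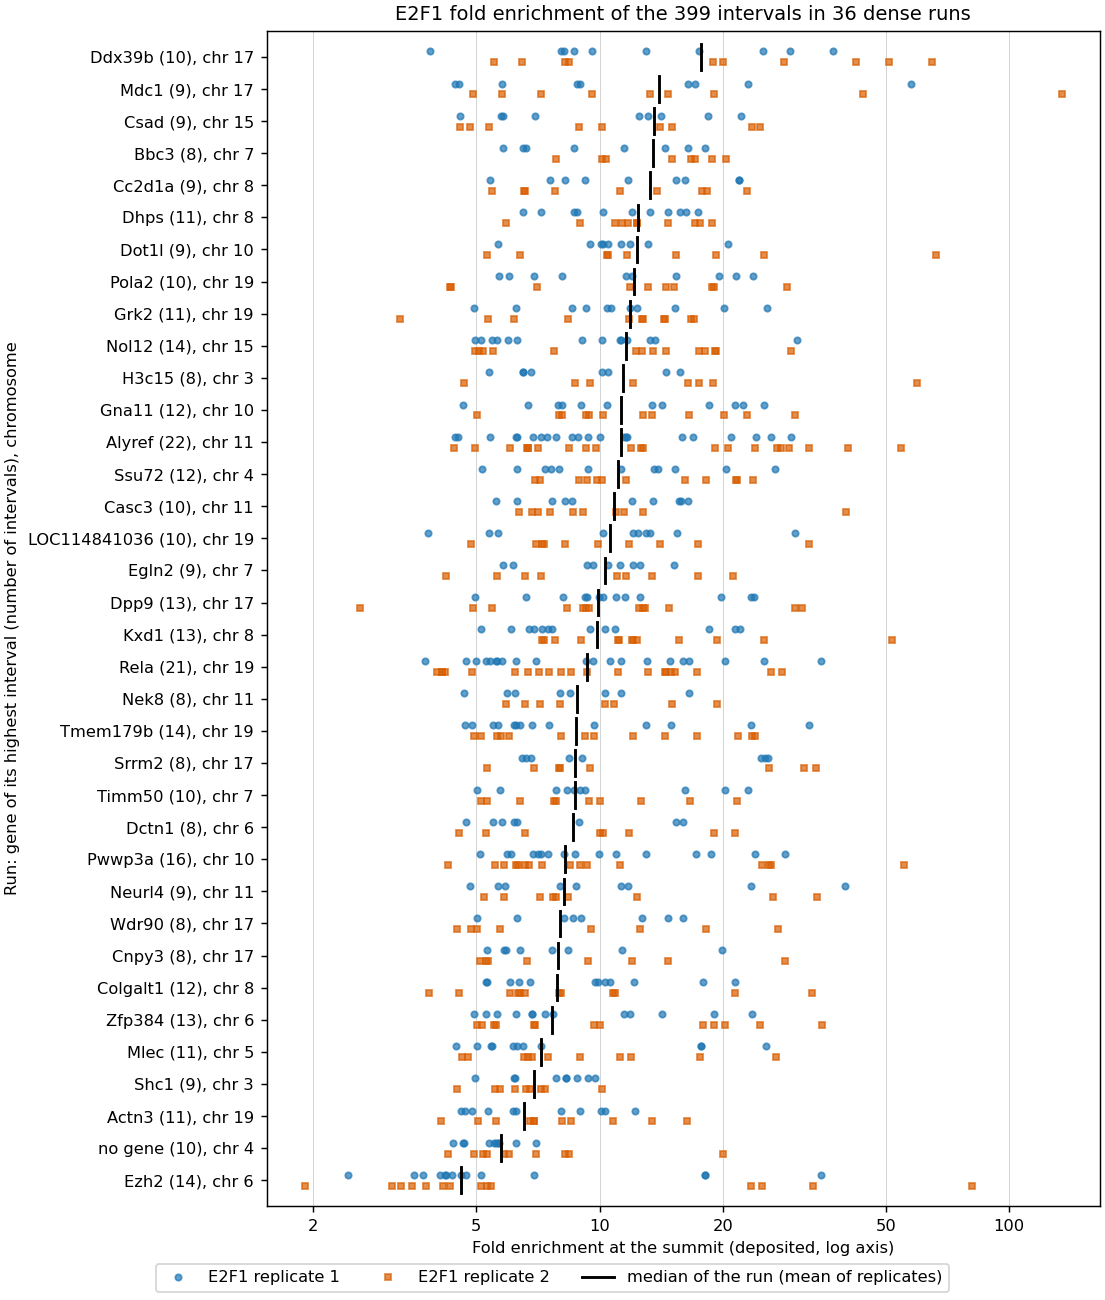
Deposited fold enrichment (horizontal log axis) of every member in E2F1 replicate 1 (circles) and replicate 2 (squares), by run (vertical axis, named by the gene at its highest interval), with a black bar for the run's median of mean folds. Most runs span folds from about 5 to above 15, and the 2 lowest rows are the runs with arrays.

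Single runs mixed strong and weak sites. Medians by run ranged from 4.48 to 12.5 in E2F1 replicate 1 and from 4.73 to 19.5 in replicate 2. The lowest and highest member of a run often differed more than the medians of different runs did, as the plot of folds by run shows. In the run led by Mdc1, for example, folds ranged from 4.44 to 57.4 in replicate 1 and from 4.91 to 134.4 in replicate 2.

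The 15 members with the highest mean fold lay in 11 different runs and are given by what their genes do. The member at Mdc1 had folds of 57.4 and 134.4 in E2F1 replicates 1 and 2, ranks 15 and 1 of the 7001 intervals, at pileups of 163 and 383 reads. Ezh2 followed with 34.7 and 81.3, ranks 150 and 23. Dot1l, the methyltransferase of lysine 79 of histone H3, had 20.6 and 66.3. Pwwp3a, a chromatin protein with a PWWP domain, had 24.0 and 55.4. The member shared by the core histone genes H3c15 and H2ac19 had 14.5 and 59.7, the largest ratio between the libraries among these 5. Replicate 2 exceeded replicate 1 at each of these 5 members. Nrm, the inner nuclear membrane protein nurim, had 23.1 and 44.0 and lies in the run of Mdc1.

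RNA handling and translation supplied 4 of the 15. Ddx39b had folds of 29.1 and 64.6 in E2F1 replicates 1 and 2. Lsm2, a ring subunit of the U6 snRNP, had 25.1 and 51.0. The member between Alyref, an mRNA export adaptor, and Anapc11, the RING subunit of the anaphase-promoting complex, had 20.9 and 54.5. The member at Vars, valyl-tRNA synthetase, and D17H6S56E-5 had 17.5 and 42.3. All 4 again read higher in replicate 2. Signalling and other genes made up the rest. Rela, the p65 subunit of NF-kappaB, had 34.7 and 27.9, and the member shared by Neurl4 and Gps2, a subunit of a corepressor complex, had 39.7 and 26.4. These 2 read higher in replicate 1. Kxd1, part of a complex that positions lysosomes, had 22.0 and 51.6, and Fkbp2, a prolyl isomerase of the endoplasmic reticulum, shared a member of 29.9 and 32.4 with LOC114841036. The last of the 15 touched no gene, at chromosome 11, 120304301 to 120306226, with folds of 29.3 and 40.4.

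The longest run lay on chromosome 11, 120150713 to 120714277 (563.6 kb), and held 22 members and 29 protein-coding genes, 17 of them with an interval. Its highest member was that of Alyref and Anapc11. Actg1, cytoplasmic gamma actin, had folds of 26.2 and 23.9 in E2F1 replicates 1 and 2. Mafg, a small Maf transcription factor, had 16.9 and 27.7 at one member, and 4.5 and 4.97 at another shared with the deacetylase gene Sirt7. The lowest member lay at Bahcc1, a chromatin reader, with 4.44 and 4.41, beside a second Bahcc1 member of 6.28 and 6.04. Fscn2, Pde6g, Gcgr and Notum were among the 12 genes without an interval.

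The next longest run lay on chromosome 19, 5294987 to 5846523, with 21 members and intervals at 22 of 32 genes. Rela was its highest member. Banf1, a protein that bridges DNA at the nuclear envelope, shares with Eif1ad a member of 25.3 and 26.3 in E2F1 replicates 1 and 2. Efemp2, an extracellular matrix protein, had 20.2 and 15.3, and Cfl1, the actin-severing protein cofilin, had 13.1 and 8.52. Fosl1, an AP-1 subunit, had 5.76 and 6.69 at one member and 4.99 and 7.54 at another shared with Ccdc85b. The lowest member lay between Rnaseh2c and Kat5 with 3.74 and 4.19. Its last 2 members lay at the nuclear long noncoding RNA genes Malat1, with 14.9 and 14.6, and Neat1, with 9.27 and 9.33. At Malat1 and Neat1 the libraries read nearly alike.

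On chromosome 10, 79926514 to 80293196, 16 members formed a run in which 9 of 21 genes had an interval at a boundary. Pwwp3a was the highest. The next by mean fold lay inside genes: Midn, encoding a nuclear protein that targets substrates to the proteasome, with 28.4 and 26.2 in E2F1 replicates 1 and 2, and Cirbp, a cold-inducible RNA-binding protein, with 18.7 and 25.9. Gpx4, which detoxifies lipid peroxides, had an interval inside it with 17.2 and 11.2. These genes counted as genes without an interval at a boundary, because only the outermost start and end of a gene were used and the intervals lay more than 1000 bp inside them. Stk11, the kinase LKB1, had 9.95 and 6.26, and Rps15, a ribosomal protein gene, had 6.09 and 6.32. Arid3a, a transcription factor that can bind E2F1, was the lowest with 7.06 and 4.27.

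Of the 3 runs with 14 members, 1 lay on chromosome 15, 78833149 to 79109705. Its highest member, at the nucleolar protein gene Nol12, had folds of 30.4 and 29.3 in E2F1 replicates 1 and 2. H1f0, a linker histone of resting and differentiated cells, had 13.3 and 14.5, and Lgals1, galectin-1, had 9.06 and 12.7 at one member and the run's lowest mean fold, from 5.12 and 5.06, at another. Another run of 14 lay on chromosome 19, 8713068 to 8990955, with intervals at 17 of 27 genes. Its highest member lay between Tmem179b and Taf6l, a subunit of the SAGA coactivator, with 32.5 and 23.5. B3gat3, an enzyme of proteoglycan synthesis, had 23.5 and 21.7. Nxf1, the main mRNA export receptor, had 7.52 and 17.3, more apart between libraries than its neighbours. The lowest, at 1810009A15Rik, had 4.88 and 4.93. The remaining run of 14 on chromosome 6 is described with the arrays.

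Runs with the highest median fold were shorter. The first, on chromosome 17 from 34981560 to 35244001, lies in the class III region of the major histocompatibility complex and had a median of mean folds of 17.7 over 10 members. Besides Ddx39b, Lsm2 and Vars it held Msh5, a meiotic mismatch repair homologue, with 37.1 and 18.9 in E2F1 replicates 1 and 2. Prrc2a, an RNA-associated protein, had 12.97 and 28.2, and Bag6, a chaperone of membrane proteins, had 9.58 and 20.04. Its lowest member lay inside Clic1 with 3.84 and 5.52. Of its 29 genes, 11 had an interval. Those without included the cytokine genes Tnf, Lta and Ltb, the leukocyte genes Aif1 and Lst1, and the Ly6g6 and Ly6g5 genes.

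The second, also on chromosome 17, from 35836585 to 35980831, had a median of 13.995 over 9 members and an interval at each of its 10 genes. After Mdc1 and Nrm came the member of Mrps18b and Ppp1r10, a subunit that targets protein phosphatase 1 to the nucleus, with 17.1 and 14.7 in E2F1 replicates 1 and 2. Prr3 and Gnl1 shared a member of 16.5 and 13.3, and Tubb5, a beta tubulin, had 8.97 and 19.03. The lowest, at Atat1, the alpha-tubulin acetyltransferase, and 2310061I04Rik, had 4.44 and 4.91. Mdc1 and Tubb5 are neighbours, and their members differed by more than 6 times in each library.

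The other 3 of the 5 runs with the highest medians had medians of 13.6, 13.5 and 13.3. The run on chromosome 15, 102203171 to 102406999, was led by Csad and Zfp740 with 22.1 and 23.5 in E2F1 replicates 1 and 2. It also held Sp1, the GC-box binding factor, with 12.5 and 24.6, Espl1, the protease separase, with 14.1 and 15.1, and Pfdn5, its lowest, with 4.56 and 4.83. The run on chromosome 7, 16272686 to 16402712, had an interval at each of its 4 genes and was led by a member inside Bbc3, which encodes the apoptosis protein PUMA and is a known E2F1 target, with 18.05 and 20.3. A second Bbc3 member at its boundary had 8.63 and 10.4, and Sae1, a subunit of the SUMO-activating enzyme, had 16.5 and 14.98. Its lowest member touched no gene and had 5.82 and 7.82. The run on chromosome 8, 84004357 to 84249770, had an interval at 3 of 12 genes. Its Cc2d1a member had 21.9 and 22.9, Dcaf15, a ubiquitin ligase receptor, had 21.9 and 13.8, and a member inside Rfx1, a transcription factor gene, had 11.7 and 18.2. Its lowest, at 1700067K01Rik, had 5.41 and 6.59.

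The remaining runs on chromosomes 3 to 8 each held 8 to 13 members. On chromosome 3, 9 members lay at 89246061 to 89459610, led by a member inside Pygo2, a Wnt coactivator, and near the end of Shc1, an adaptor of receptor tyrosine kinases, with 9.73 and 10.1 in E2F1 replicates 1 and 2. On chromosome 4, 12 lay at 155668641 to 155893469, with intervals at 10 of 16 genes. On chromosome 5, 11 lay at 115118795 to 115349258, led by Mlec, a glycoprotein-binding lectin, with 17.7 and 26.9. The run of Pygo2 and Shc1 was the only one of these in which no member reached a fold of 11 in either library. On chromosome 6, 8 members lay at 83032855 to 83166364, led by Dctn1, the largest dynactin subunit, with 16.0 and 21.4. Also on chromosome 6, 13 lay at 124711855 to 125010286, led by the zinc finger gene Zfp384 with 23.6 and 34.9. On chromosome 7, 9 lay at 27166158 to 27362050, led by Egln2, a prolyl hydroxylase of the hypoxia pathway, with 11.2 and 21.2. The member at each of these 3 leading genes read higher in replicate 2. Also on chromosome 7, 10 lay at 28179503 to 28437008, led by Timm50, a mitochondrial import subunit, with 23.0 and 21.6. On chromosome 8, 13 lay at 70352630 to 70700990, led by Kxd1, and 12 at 71366418 to 71611988, led by Colgalt1, a collagen galactosyltransferase, with 21.4 and 32.9. A last run of 11 on chromosome 8, at 84798856 to 85072450, was led by Dhps, the enzyme that begins hypusine synthesis, with 17.4 and 17.6.

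On chromosome 10, 9 members lay at 80561138 to 80756529, led by Dot1l, and 12 at 81292936 to 81561157, led by the G-protein gene Gna11 with 21.4 and 30.005 in E2F1 replicates 1 and 2. On chromosome 11, 9 lay at 69837115 to 70001306, led by Neurl4 and Gps2, and 8 at 78164370 to 78343897, led by Nek8, a ciliary kinase that shares its member with Tlcd1 and Rpl23a, with 16.5 and 19.4. Another run on chromosome 11, with 10 at 98740631 to 98961333, was led by Casc3, an exon junction factor, with 16.4 and 39.9. The Neurl4 member was the only leading one of these 5 that read higher in replicate 1. On chromosome 17, 8 lay at 23673515 to 23829283, led by a member inside Srrm2, a splicing scaffold, with 25.3 and 33.7. Another 8 lay at 25791914 to 25985877, led by Wdr90, a centriolar protein, with 16.0 and 27.2. A further 8 lay at 46553047 to 46752749, led by Cnpy3, a chaperone of Toll-like receptors, with 19.8 and 28.3. Each of these 3 runs on chromosome 17 had a median of mean folds under 9. On chromosome 19, 11 lay at 4012231 to 4306818, led by Grk2, a receptor kinase, with 25.6 and 12.8, and 11 at 4878387 to 5107080, led by Actn3, a muscle actinin, and Zdhhc24 with 10.1 and 16.4. Another 10 lay at 6839943 to 7057699, led by Fkbp2 and LOC114841036. The Actn3 run had the lowest median of mean folds on chromosome 19, 6.53.

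Among the gene families searched, histone genes were gathered in 1 run, apart from H1f0 on chromosome 15. This run spans chromosome 3, 96104029 to 96278471, and 13 of its 15 genes had an interval, all but Sv2a and Bola1. After H3c15 and H2ac19, the highest was H4c14, with 15.7 and 17.5 in E2F1 replicates 1 and 2. H2ac21, H2ac20 and H2bc21 shared 10.5 and 12.1, H2ac18 and H3c14 shared 6.48 and 16.5, and H3c13 and H2bc18 had the run's lowest, 5.38 and 4.67. Otud7b, a deubiquitinase, had 10.2 and 18.9 at the other end of the run. Of 97 histone genes in the table, 41 (42.3%) had an interval at a boundary, and 11 of these (26.8%) were at members, against 5.7% of all intervals. H1f0 is among the 11 and is not a replication-dependent histone gene, although the search by name took it in. All but H1f0 lie in this 1 run and most share an interval, so they are not separate cases. Several of these genes are near-identical copies, so reads may have been divided among them.

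The other families, Hox genes and protocadherins apart, were at members about as often as intervals in general, of which 5.7% were members. Of 91 ribosomal protein genes 42 (46.2%) had an interval and 3 of these (7.14%), Rps15, Rpl23a and Rps16, were at members. Of 397 zinc finger genes named Zfp, 141 had an interval and 9 of these (6.38%) were at members, 4 of them in the chromosome 6 run of Ezh2. No member lay at a Hox gene or a protocadherin, where 7 of 39 and 5 of 69 genes had an interval, too few to read a difference from. Among small RNA genes, 3 of the 48 tRNA genes with an interval (6.25%) and 1 of the 22 snRNA genes with an interval (4.55%) were at members.

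Dense spacing had another form in 2 runs, where low peaks stood in rows of mostly even spacing. On chromosome 4, a run of 10 members spans 88763058 to 88938923. Of these, 9 lay over the interferon zeta genes at 88763058 to 88806074, a mouse cluster of near-identical genes related to type I interferons. Their summits were a median of 2989 bp apart (2900 to 11560), and the starts of the copies were a median of 2929 bp apart. Folds ranged from 4.38 to 6.26 in E2F1 replicate 1 and from 4.26 to 8.42 in replicate 2, and widths from 427 to 570 bp. All 9 were thus below the median member of each library. The last member of the run touched no protein-coding gene and had 6.98 and 19.97.

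Of the 15 protein-coding copies, 8 had a member. The copies without one included Ifnz, Gm13276 and Gm13277, whose promoters in the table are identical to each other over 300 bases. Promoters of Gm13290 and Gm13279 were identical too, as were those of Gm13272, Gm13285 and Gm13287, and each of these 5 copies had a member. The pair below is shown because 2 separate members lie at copies that are almost the same sequence. Each line is the 250 bases before the start on GRCm38.p6, Gm13290 at chr4:88773584-88773833 and Gm13289 at chr4:88776512-88776761, plus strand, with capitals at the bases that differ.
Gm13290: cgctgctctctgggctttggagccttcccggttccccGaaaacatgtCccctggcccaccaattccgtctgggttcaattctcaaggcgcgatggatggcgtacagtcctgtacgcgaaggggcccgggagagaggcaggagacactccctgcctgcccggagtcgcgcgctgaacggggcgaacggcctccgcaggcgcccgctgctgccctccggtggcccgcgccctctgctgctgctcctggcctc
Gm13289: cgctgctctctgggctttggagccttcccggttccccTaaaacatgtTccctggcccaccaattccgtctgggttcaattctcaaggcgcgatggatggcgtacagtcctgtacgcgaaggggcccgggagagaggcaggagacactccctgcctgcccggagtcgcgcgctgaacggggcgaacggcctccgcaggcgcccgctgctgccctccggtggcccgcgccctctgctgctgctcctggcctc
They agreed at 298 of 300 bases, the 2 changes being G38T and C48T, counted from 1 at the 5′ end with the base of Gm13290 first. Folds at Gm13290 were 5.58 and 4.26 in E2F1 replicates 1 and 2, and at Gm13289 they were 4.64 and 6.97. Folds at Gm13279, whose promoter equals that of Gm13290, were 5.69 and 8.42. Gm13290 and Gm13279 thus read nearly alike in replicate 1 and apart in replicate 2. The other copies with identical promoters, Gm13272, Gm13285 and Gm13287, had 5.66, 6.26 and 5.53 in replicate 1 and 5.20, 5.30 and 5.86 in replicate 2, a narrow range in each library. How reads that match several copies were treated is not given in the sources used here. Neither EV library had a peak in this run.

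**Figure D4:**
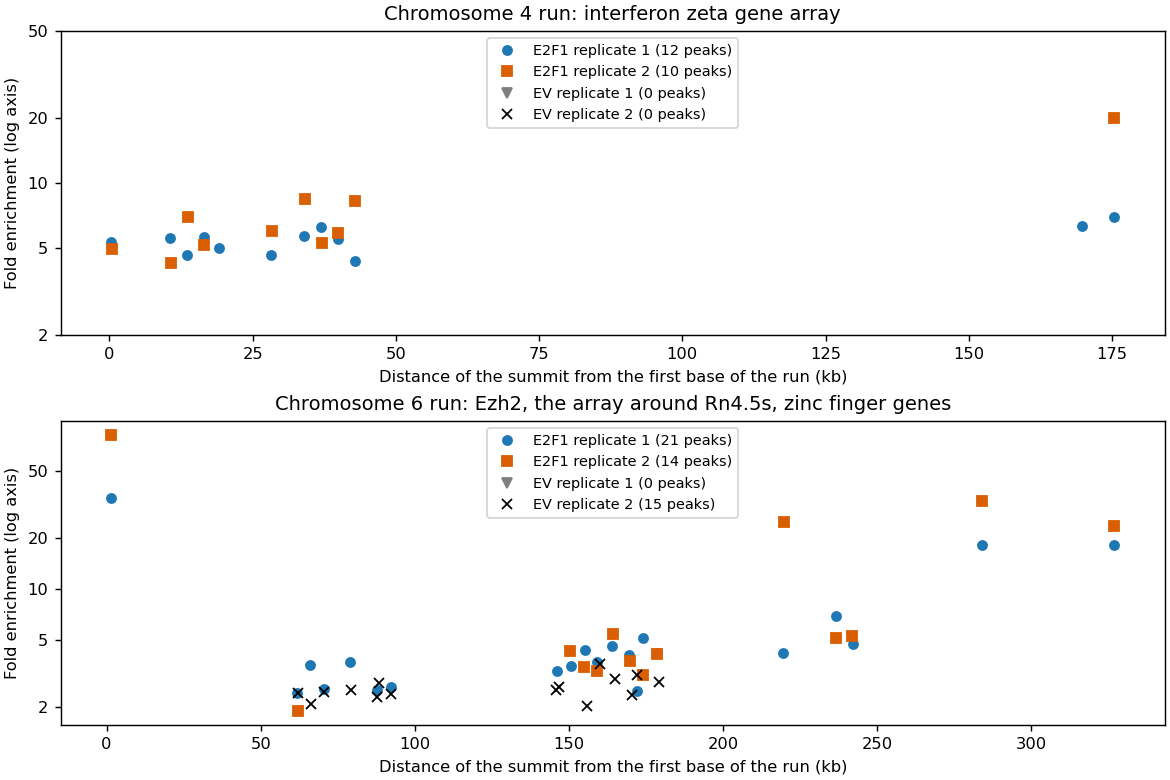
Deposited fold enrichment (vertical log axis) of every peak of the 4 libraries against the distance of its summit from the first base of the run (horizontal axis, kb), in the runs on chromosome 4 (top) and chromosome 6 (bottom). Both arrays appear as rows of low folds with mostly even spacing. EV replicate 2 has peaks in the array on chromosome 6 and none in that on chromosome 4.

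The other evenly spaced row, called an array here for its spacing alone because its sequence was not read, lay in the run on chromosome 6, 47593801 to 47921390, with 14 members. Its ends were ordinary promoters: Ezh2 on one side and, on the other, the zinc finger genes Zfp282, with 18.1 and 33.2 in E2F1 replicates 1 and 2, and Zfp212, with 18.1 and 23.4. Pdia4, a protein disulfide isomerase, had 4.18 and 24.9, and Zfp786 and Zfp398 shared 4.71 and 5.30. Between them, near the gene Rn4.5s, which the annotation marks as rRNA, lay 8 members without a protein-coding gene at a boundary. Of these, 7 stood at 47744111 to 47772581 with summits a median of 4438 bp apart (4138 to 5567). Their folds ranged from 3.53 to 5.12 and from 3.11 to 5.43, over a local background 17.7 to 43.6 times the genome-wide one in replicate 1 and 17.5 to 43.1 times in replicate 2. The eighth, at 47655444 to 47655940, had the lowest mean fold of all 399 members, with 2.43 and 1.90. The 5 lowest members by mean fold all lay in this array.

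EV replicate 2 had peaks in the same array. Within it there were 15 peaks of E2F1 replicate 1, 8 of E2F1 replicate 2, 14 of EV replicate 2 and none of EV replicate 1, counted from the first to the last base of the 8 members. A further EV replicate 2 peak, at 47772904 to 47773160 with a fold of 2.81, lay just past the last member. Folds of the 14 EV replicate 2 peaks ranged from 2.03 to 3.58, over a background 15.02 to 53.1 times the genome-wide one. Their median spacing was 4363 bp (554 to 53509). Summits of E2F1 replicates 1 and 2 had median spacings of 4429 bp (1910 to 54107) and 4444 bp (4336 to 88546). Median folds of the peaks in the array were 3.55 and 3.62 in E2F1 replicates 1 and 2 and 2.49 in EV replicate 2. Of the 7 evenly spaced members, 1 was overlapped by an EV replicate 2 peak. The E2F1 and EV rows were therefore similar in spacing and in background. They overlapped in fold, with the higher medians in E2F1, as the plot of the arrays shows. Most of the 7 members had no EV peak over them, but several had one close by. EV replicate 2 peaks began at 47749502, 47758595, 47764167 and 47772904, just past members that ended at 47749125, 47758106, 47763698 and 47772581. The members that began at 47744111 and 47767734 had no EV peak as near. Without both runs that hold arrays, the log2 ratio of median folds of members over others was -0.24, as an alternative chosen after the data were seen.

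Peaks of the EV libraries were otherwise absent from the runs, with 1 exception. Of the 399 members, 4 (1.00%, 0.391 to 2.55) were overlapped by an EV peak, against 0.229% of all intervals. A pair lay in the array on chromosome 6, and the other pair lay inside Chaf1a, which encodes the large subunit of chromatin assembly factor 1. The Chaf1a run spans chromosome 17, 55878295 to 56219003, with 13 members.

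At the Chaf1a start, folds were 23.8 and 29.96 in E2F1 replicates 1 and 2, and no EV library had a peak there. Inside the gene, at 56046820 to 56047641, folds were 19.8 and 2.60 in E2F1 and 11.3 and 120.8 in EV replicates 1 and 2. At 56063997 to 56065406 they were 12.6 and 4.90 in E2F1 and 9.22 and 168.5 in EV. At both internal positions the EV replicate 2 value was the highest of the 4 libraries and E2F1 replicate 2 the lowest. The local background under the first internal position was 13.1 times the genome-wide one in E2F1 replicate 2 and 3.76 times in replicate 1. Dpp9, a dipeptidyl peptidase at the other end of the run, had the highest mean fold, 23.4 and 31.2, and no EV peak. Ubxn6, an adaptor of the VCP ATPase, had an internal member of 9.29 and 5.45, the lowest in the run by mean fold.

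**Figure D5:**
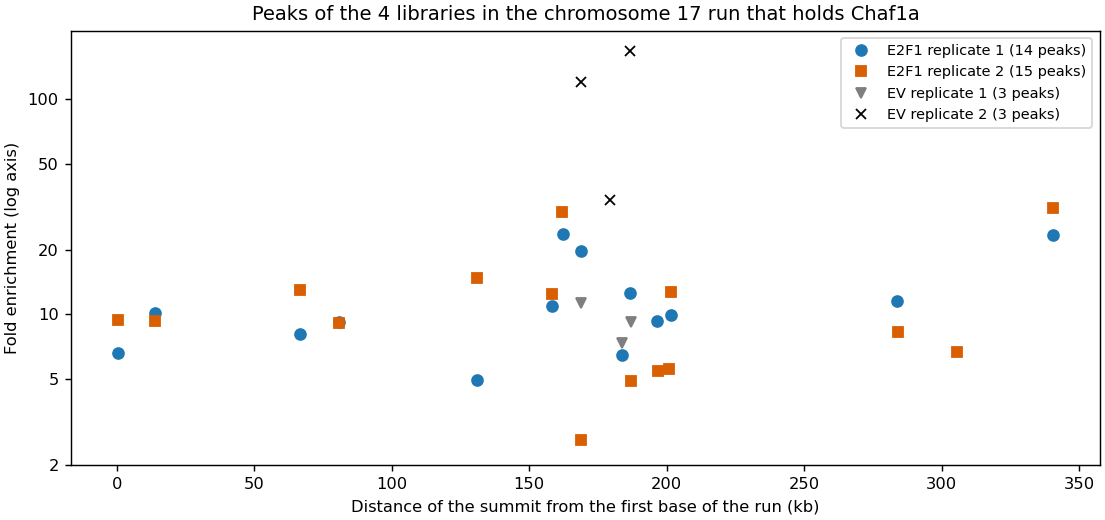
Deposited fold enrichment (vertical log axis) of every peak of the 4 libraries in the run that holds Chaf1a against the distance of its summit from the first base of the run (horizontal axis, kb). EV peaks fall between 168 and 187 kb, inside Chaf1a, and the members elsewhere in the run have E2F1 peaks without EV peaks.

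Genes of the cell cycle were at members about as often as intervals in general. From a list of 107 genes of the cell cycle, DNA replication and the RB/E2F system, 94 (87.9%) had an interval at a boundary, with a median of mean folds of 21.1. Of those 94, 4 (4.26%) were at members, against 5.7% of all intervals. The 4 were Ezh2, Chaf1a, Pola2 and Cdc6. Pola2, the second subunit of DNA polymerase alpha, had 23.6 and 28.6 in E2F1 replicates 1 and 2 and led a run of 10 on chromosome 19, 5963538 to 6236491. In the same run Cdca5, the cohesion factor sororin, which was not on the list, shares with Zfpl1 a member of 21.5 and 18.8. Cdc6 had 13.5 and 8.62, in the run led by Casc3. There it lies near Rara and Thra, genes of nuclear receptors, with 12.0 and 10.98 inside Rara and 15.7 and 9.13 at Thra. Nr1d1, a nuclear receptor of the circadian clock in the same run, had 5.58 and 7.09, so Cdc6 stood above Rara and Nr1d1 in replicate 1 and above Nr1d1 in replicate 2.

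Promoter sequence was compared in windows from 250 bases before to 50 bases after each RefSeq start. Of 393 genes at members, 330 (84.0%) were in the promoter table, and 282 members (70.7%) overlapped a promoter window, against 73.7% of the others. Any of the 4 E2F sites, on either strand, occurred in 24 of 392 protein-coding promoters over members (6.12%). The shares were 5.86% in promoters over other intervals, 2.85% in all 21263 protein-coding promoters and 1.08% (3 of 278) in promoters within run spans that no interval overlapped. TTTCCCGC was the most frequent form at members, in 16 promoters (4.08%). A gene can have several windows that overlap, so these counts are not independent.

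Within runs, promoters over members were richer in GC and CpG than promoters that no interval overlapped. Median GC content was 63.5% over members and 56.7% in run promoters without an interval, and the median number of CpG dinucleotides was 24 and 11. Over intervals outside runs they were 65.3% and 26, and over all promoters 56.3% and 13. The GC box GGGCGG, which on the opposite strand can share bases with TTTCCCGC, occurred in 72.7% of promoters over members, 54.7% of run promoters without an interval, 76.7% over other intervals and 46.2% of all. CCAAT occurred in 41.1%, 35.97%, 36.6% and 38.2%. The 22 members over a promoter with an E2F site had median folds of 12.5 and 12.0 in E2F1 replicates 1 and 2, and the 260 over promoters without one had 8.90 and 9.85. Outside runs the corresponding medians were 12.97 and 18.3 with a site and 9.93 and 12.9 without.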

How the data were processed

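ChIP-seq peak lists of 4 libraries (E2F1 and EV, 2 each) were used; files of 2 input samples were not used here. Bowtie2, MACS2, Trimmomatic, FastQC, ChIPseeker and the mm10 build are named, without versions, per the submitters' processing notes. The antibody and the controls of peak calling are not given in the sources used here, and the doxycycline dose is not printed because the sources differ. Each deposited list holds a peak score, the fold enrichment (a ratio), and −log10 p and −log10 q values. The smallest −log10 p in each deposited list was just above 10 (10.0001 to 10.0187), so weaker sites are missing.

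Peaks of each library were merged and counted as described with the results, in python 3.11.15 with pandas 2.3.3, numpy 2.4.6 and scipy 1.17.1. Qualifying windows that shared an interval or overlapped were joined into a run, which spans its first to last interval. Pileup and background were derived from each peak's fold and −log10 p as deposited (fold with a pseudocount of 1, Poisson tail), which succeeded for 99.99%, 99.98%, 95.7% and 99.7% of peaks, within 5% of a step; the solver and the run search were tested on simulated data. Genes came from RefSeq (GRCm38.p6), leaving out 340 genes placed before 3 Mb of a chromosome other than Y, 108 of them protein-coding. Promoters came from RefSeq. Intervals (Wilson, 95%) cover counting error only.

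Named runs are the 5 with most intervals (6 with ties), the 5 with the highest median fold and those with 3 or more genes of a family at their intervals, with their highest and lowest member; named members are the 15 highest and 5 lowest by mean fold, and genes of the cell cycle list. The interferon zeta, Chaf1a, Pola2 and Casc3 runs and further genes within runs were chosen after their values were seen. The members and lists were chosen with earlier results of these data known. No test was run, because the rule used the peaks that are described.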

Additional observations from a re-analysis of the deposited data

How the results depend on the processing

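The number of members depended on the rule: 399 became 36 with windows of 100 kb, 1531 with 400 kb, 691 with a minimum of 7 intervals, 118 with 10, 260 with a reciprocal overlap of 50% and 17 with peaks at or above their list's median score. The 36 runs became 4, 107, 67, 10 and 2 with the same settings (27 with the reciprocal overlap). From 1 library alone there were 710 to 779 members in 61 to 65 runs. At or above the median score 2 of the 36 runs still held a member, those led by Ezh2 and Alyref. The Ezh2 run holds the array on chromosome 6, whose 7 evenly spaced members had scores of 529 to 760 in E2F1 replicate 1. Their folds in that library were 3.53 to 5.12, and the median score over all 399 members was 318.

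The log2 ratio of median folds, -0.29, stayed below 0 in all alternatives run, which did not include the reciprocal overlap. It was -0.99 with 100 kb (36 members), -0.53 with a minimum of 10 (118) and -0.69 at or above the median score (17). With 400 kb it was -0.13, and with a minimum of 7 it was -0.22. Both runs with arrays still held members with a minimum of 10, and the part of the arrays was not tested. The values of each library, -0.15 and -0.43, are those behind the mean, over the same 399 members. Other values from 1 library used members called anew. The share of members at a protein-coding boundary, 79.7%, was 75.4% within 500 bp, 85.2% within 2500 bp and 84.2% with all genes, and 75.5% to 78.3% from 1 library. Genes per Mb, 64.7, were 60.5 over whole windows, 58.5 with a minimum of 7, 62.8 with 10, and 61.2 to 61.6 from 1 library. The share of run genes with an interval, 59.0%, was 54.6% within 500 bp and 65.2% within 2500 bp, and 60.9% to 61.0% from 1 library. The share of members over an EV peak was 0.501% to 1.00% with 1 EV list left out. The cause of these shifts was not tested beyond what each setting changes by construction.

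No paired analysis was possible because no result comes from a test; the replicate numbers enter no fit. With 2 libraries a construct, the spread rests on a pair of values, and sites under the deposited threshold are missing from every list.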

Other observations

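The main histone clusters of the mouse, on chromosome 13, fell just short of a dense run. Intervals lay at 15 positions with histone genes there, and no window of 200 kb held more than 7 intervals. The highest, at H4c1 and H3c1 (chromosome 13, 23760570 to 23762357), had folds of 35.1 and 69.6 in E2F1 replicates 1 and 2, above the highest histone member of the run on chromosome 3 in each library. H2bc7, H2ac7 and H3c4 shared 10.8 and 16.4, and H4c12 had 13.7 and 18.2. H2ac10 had 12.7 and 3.76, read lower in replicate 2 than any other of the 15. H2bc6 and H1f4, a linker histone gene, shared 5.39 and 6.30. With a minimum of 7 intervals, part of this region would count as a run.

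Inside the run spans, 38 peaks of E2F1 replicate 1 and 21 of E2F1 replicate 2 were not part of any interval shared by the libraries.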
